A study of Mus musculus with 16 samples.

Results

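The cytoplasmic ribosomal proteins, the proteins of the large (60S) and small (40S) ribosomal subunits, were followed in left atria (LA) and right atria (RA) of adult mice. Every array probe annotated to a gene symbol of the form Rpl or Rps followed by a number, by a or by p0 to p2 was taken, and the S6 kinase genes, whose symbols begin in the same way, were left out. This rule used names alone and gave 84 probes for 66 genes, of 25697 probes and 16593 named genes on the array. Of the 66 genes, 32 encode core proteins of the large subunit (43 probes), 23 encode proteins of the small subunit (28 probes) and 3 encode the P stalk of the large subunit (4 probes). A further 7 genes (8 probes) are paralogs or tissue-restricted forms, and 1 gene, Rps19bp1, encodes a protein that binds Rps19 and is not a ribosomal subunit.

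Left and right atria were compared within each of 2 datasets, with 4 arrays for each atrium in each dataset and 16 arrays in all. One dataset held MF1 mice and the other Swiss Agouti (SA) mice, both aged 12 months and both outbred. All animals were wild type with no treatment named, each array held RNA of 1 atrium, and nothing was pooled. By the study's sample table the MF1 animals were male and the Swiss Agouti animals female, so strain, sex and dataset cannot be told apart. The arrays hold whole atrial tissue, in which a change in a cell type's share and a change in RNA per cell cannot be told apart.

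Ribosomal proteins assemble with ribosomal RNA in the nucleolus, and each is used at 1 copy a ribosome except the acidic P stalk proteins. Their mRNAs are among the most abundant of a cell and start with a run of pyrimidines, the 5′ terminal oligopyrimidine (TOP) tract, through which mTOR signalling and the protein Larp1 set their translation. In the heart, ribosome content is known to grow when cardiomyocytes enlarge, and dividing or secreting cells hold many ribosomes too.

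The sequences around the transcription start are shown for members whose values lead the results below, because TOP tracts and factor sites of ribosomal protein genes lie there. They are RefSeq promoters of build GRCm38.p6, 5′ to 3′ on the gene's own strand, with 40 bases before the annotated start and 30 bases from it. Capitals mark CTTTC (a pyrimidine run, sense strand), CGGAAG on either strand (the core bound by ETS factors) and TATAAA on either strand. Some of the searched motifs can share bases, so a run of capitals can hold several motifs. The first 6 belong to members that were higher in right atria of Swiss Agouti mice, and the last 4 to members with a value towards the left atrium in one or both datasets.
Rpl36a: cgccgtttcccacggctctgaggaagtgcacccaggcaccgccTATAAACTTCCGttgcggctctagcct
Rps25: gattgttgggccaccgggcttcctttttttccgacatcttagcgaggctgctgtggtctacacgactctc
Rpl37a: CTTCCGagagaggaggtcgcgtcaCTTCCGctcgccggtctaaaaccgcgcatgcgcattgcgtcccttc
Rps21: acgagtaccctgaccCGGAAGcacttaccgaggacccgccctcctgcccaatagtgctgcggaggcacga
Rps10: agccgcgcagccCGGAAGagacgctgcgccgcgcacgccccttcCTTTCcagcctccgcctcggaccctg
Rpl12: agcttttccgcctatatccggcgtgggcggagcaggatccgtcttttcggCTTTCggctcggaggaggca
Rpl38: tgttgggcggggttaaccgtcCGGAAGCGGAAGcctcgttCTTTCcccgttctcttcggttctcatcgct
Rpl27a: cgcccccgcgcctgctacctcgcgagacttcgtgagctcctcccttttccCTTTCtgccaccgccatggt
Rplp2: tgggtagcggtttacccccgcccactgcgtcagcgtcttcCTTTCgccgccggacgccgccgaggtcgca
Rpl3l: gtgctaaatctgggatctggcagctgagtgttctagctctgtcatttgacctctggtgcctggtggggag
The windows lie at chrX:134585614-134585683 (plus strand) for Rpl36a, chr9:44407674-44407743 (plus strand) for Rps25, chr1:72711220-72711289 (plus strand) for Rpl37a, chr2:180257339-180257408 (plus strand) for the upstream start of Rps21, chr17:27635215-27635284 (minus strand) for Rps10 and chr2:32961672-32961741 (plus strand) for Rpl12. Those of the last 4 lie at chr11:114668540-114668609 (plus strand) for Rpl38, chr7:109519155-109519224 (plus strand) for Rpl27a, chr7:141447611-141447680 (plus strand) for Rplp2 and chr17:24727786-24727855 (plus strand) for the upstream start of Rpl3l.

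Of the 66 genes, 57 had a RefSeq promoter in the table used here, with 68 annotated starts. CTTTC lay within 50 bases of the start on the sense strand in 33 of the 68 promoters (48.5%), against 12.8% of 32851 promoters of all genes. CGGAAG occurred on either strand of the 300 bases (250 before the start and 50 from it) in 42 of 68 (61.8%), against 16.9% of all promoters, and TATAAA in 6 of 68 (8.82%), against 13.6%. Among the 10 promoters of members called in Swiss Agouti mice below, 6 held CTTTC and 9 held CGGAAG, against 27 and 33 of the 58 promoters of the other members. Those 10 promoters belong to 9 of the 10 called genes. Rps21 entered with more than 1 start, and the windows of its starts overlap, so the same letters can count more than once. Rpl3l, the form of Rpl3 made in striated muscle, held none of the 3 motifs at either of its starts. These matches describe letters in a window, not bound sites.

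The deposited values are log2 signals, quantile normalized within each dataset and set to the median of each probe, so they give differences between arrays and no level of one gene against another. Their medians over all probes lay at 0.00 on all 16 arrays. Identical values in several arrays of a dataset occurred for 15 of the 84 member probes in MF1 (17.9%, against 0.903% of all probes) and 10 in Swiss Agouti (11.9%, against 0.969%). Quantile normalization gives a probe the same value whenever it holds the same rank on 2 arrays, so the spread of these probes is a spread of ranks. One MF1 array, LA replicate 2, stood apart from the others: its values departed from the group means with an SD of 0.226, against 0.104 to 0.154 on the other 7 MF1 arrays. MF1 differences are therefore given with and without it.

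In left atria of Swiss Agouti mice, most ribosomal protein probes read lower than in right atria by small amounts, and the 10 that reached an adjusted p under 0.05 all read core proteins of the 2 subunits. The log2 difference (LA minus RA) was below 0 for 60 of the 84 member probes (71.4%), against 49.4% of all probes, with a median of -0.09 for the members and 0.00 for all probes. No member passed the joint threshold of the study (fold above 1.5 and adjusted p under 0.05), which 162 probes (0.63%) passed. At an adjusted p under 0.05 without a fold limit, 10 member probes (11.9%) were higher in right atria, against 1.02% of all probes, and none was higher in left atria, against 1.0% of all probes. At an unadjusted p under 0.05, 30 members (35.7%, against 6.47% of all probes) were higher in right atria and 3 (3.57%, against 6.16%) in left atria. The 4 left atria lay entirely below the 4 right atria for 16 members (19.0%, against 3.71%) and entirely above them for 2 members (2.38%, against 3.46%). Adjusted p-values are from limma with Benjamini-Hochberg adjustment over all 25697 probes, and member probes are not independent of each other, since they vary together over the arrays.

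The size of the difference varied between the arrays. The median of the 84 probes was -0.11, -0.02, 0.00 and -0.04 in the 4 left atria of Swiss Agouti mice, against 0.10, 0.01, 0.02 and 0.05 in the right atria. The arrays numbered 1 lay farthest apart, with the lowest left atrium and the highest right atrium, and left atrium 3 was close to right atria 2 and 3. The number of members with an adjusted p under 0.05 was 4 without LA replicate 1, without RA replicate 1 or without RA replicate 3, and 5 without LA replicate 3 or without RA replicate 4. The probes of Rpl36a, Rps10 and Rpl23 stayed under 0.05 in each of the 8 fits that left out 1 array, and the other 7 did so in 2 to 4 of them. With all 16 arrays in one fit 5 members had an adjusted p under 0.05. Leaving out both arrays numbered 1, an alternative chosen after seeing the data, left 2 members with an adjusted p under 0.05 (Rpl36a and 1 probe of Rpl23) and 18 at an unadjusted p under 0.05 in right atria, with a median of -0.05.

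In MF1 mice the median of the members lay close to 0 and its sign changed with single arrays. Over all 8 arrays 38 of 84 member probes (45.2%) lay below 0, against 50.0% of all probes, with a median difference of 0.02. Without LA replicate 2, 57 of 84 (67.9%) lay below 0, against 50.4% of all probes, with a median of -0.05. Without RA replicate 2 the median was -0.00879 with 47 of 84 below 0, and with array weights it was -0.03 with 50 of 84, while each of the other 6 fits without 1 array had a median above 0. No member had an adjusted p under 0.05 in either fit, against 1.35% of all probes with all arrays and 2.51% without LA replicate 2, so none reached the joint threshold that 0.79% and 1.12% of all probes passed. At an unadjusted p under 0.05, 1 member, Rps9, was higher in right atria (5.67% of all probes) and 2, Rpl27a and Rplp0, in left atria (5.27% of all probes), and with the replicate block, which pairs the atria of one number, the counts were 2 (Rps9 and Rps19bp1) and 3 (Rpl31, Rpl7l1 and Rplp0). Without LA replicate 2 these counts were 10 members in right atria (11.9%, against 6.15%) and 5 in left atria (5.95%, against 6.36%). The 3 left atria then lay entirely below the 4 right atria for 7 members (8.33%, against 6.18%) and above them for 4 (4.76%, against 5.95%).

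The member medians of the MF1 arrays were -0.02, 0.21, -0.04 and -0.05 in left atria, against 0.00, -0.02, 0.03 and 0.03 in right atria. The second left atrium was the highest of the 8 arrays, with 67 of 84 probes above 0, and left atria 3 and 4 were the lowest. Between left and right atria of the same replicate number the median difference was -0.02, 0.24, -0.09 and -0.08 in MF1 mice, with 47, 17, 58 and 60 of 84 probes below 0. In Swiss Agouti mice it was -0.24, -0.03, -0.03 and -0.10, with 62, 47, 48 and 60 of 84 probes below 0.

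**Figure D1:**
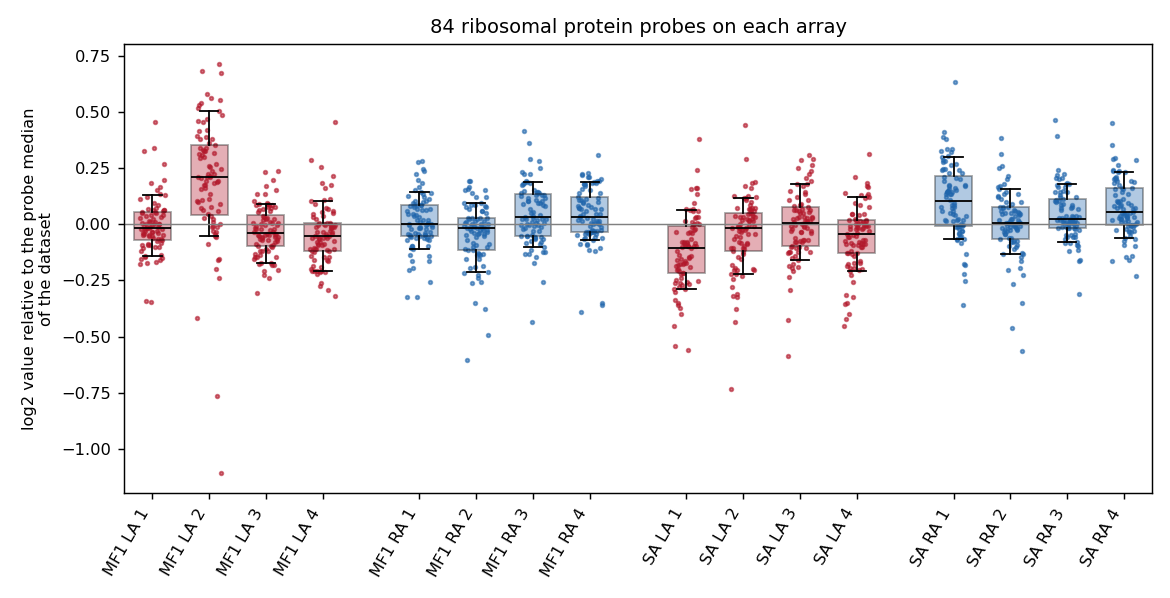
Log2 values of the 84 ribosomal protein probes, relative to each probe's median in its dataset (y axis), on each of the 16 arrays (x axis, LA in red and RA in blue). Boxes span the quartiles with the median as a line, whiskers the 10th to 90th percentile, and points are probes; MF1 LA replicate 2 has a median of 0.21, and the Swiss Agouti arrays numbered 1 lie at -0.11 in LA and 0.10 in RA.

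Small-subunit proteins had a median log2 difference of -0.16 in Swiss Agouti mice, with 23 of 28 probes below 0. In MF1 mice without LA replicate 2 the median was -0.09, again with 23 of 28 probes below 0, and over all 8 MF1 arrays it was 0.00 with 14 of 28. In Swiss Agouti mice 4 small-subunit probes had an adjusted p under 0.05 and 14 an unadjusted p under 0.05 in right atria. Rps25, a protein of the small-subunit head used in initiation at some viral internal entry sites, had values of -0.29, -0.10, -0.13 and -0.35 in SA left atria, against 0.07, 0.12, 0.47 and 0.35 in SA right atria. All 4 left atria lay below all 4 right atria, with a log2 difference of -0.47 ± 0.0935 (SE), adjusted p = 0.0312, a fold of 1.39. The same probe had -0.18, 0.11, -0.15 and 0.28 in MF1 left atria, against 0.06, -0.22, 0.00 and 0.12 in MF1 right atria, where the groups overlapped, with a difference of 0.02 ± 0.116 (SE), adjusted p = 0.976 with all arrays and -0.01 without LA replicate 2.

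Rps21, a small-subunit protein needed for late maturation of the subunit in yeast, had values of -0.30, -0.02, -0.24 and -0.31 in SA left atria, against 0.28, 0.02, 0.21 and 0.24 in SA right atria. The groups did not overlap, and the difference was -0.40 ± 0.0791 (SE), adjusted p = 0.0309. In MF1 mice its values were -0.15, 0.10, -0.14 and -0.06 in MF1 left atria, against -0.04, 0.15, 0.02 and 0.07 in MF1 right atria. The difference was -0.12 with all arrays. Without LA replicate 2 all 3 left atria lay below all right atria, and the difference was -0.17 ± 0.061 (SE), with an unadjusted p of 0.0219 and an adjusted p of 0.263 in limma.

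Rps10, a protein near the mRNA entry that is ubiquitinated when ribosomes collide, had values of -0.18, -0.24, -0.12 and -0.09 in SA left atria, against 0.29, 0.08, 0.18 and 0.29 in SA right atria. The difference was -0.37 ± 0.061 (SE), adjusted p = 0.0139, and the adjusted p stayed under 0.05 whichever single Swiss Agouti array was left out. Without both arrays numbered 1 the adjusted p was 0.11 in limma. Rps15, whose tail reaches the decoding centre, had values of -0.20, -0.20, -0.03 and -0.06 in SA left atria, against 0.25, 0.06, 0.16 and 0.29 in SA right atria. Its difference was -0.31 ± 0.0661 (SE), adjusted p = 0.0421. Neither had an adjusted p under 0.05 in MF1 mice. There Rps10 differed by 0.03 with all MF1 arrays and -0.10 without LA replicate 2, so that its sign turned, and Rps15 by -0.03 with all MF1 arrays and -0.13 without LA replicate 2.

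Other small-subunit proteins lay on the same side without passing. Rps16, whose tail touches the peptidyl-site tRNA, differed by -0.43 ± 0.103 (SE), adjusted p = 0.0733 in Swiss Agouti mice. Its values were -0.34, -0.18, 0.11 and -0.42 in SA left atria, against 0.30, 0.25, 0.10 and 0.24 in SA right atria, so left atrium 3 lay just above right atrium 3. Both probes of Rps9, a protein of the mRNA entry channel known for decoding accuracy, were lower in left atria in each dataset. The probe with the lowest p in MF1 mice had values of -0.34, 0.06, -0.12 and -0.22 in MF1 left atria, against 0.04, -0.02, 0.19 and 0.18 in MF1 right atria. The difference was -0.25 ± 0.0902 (SE), adjusted p = 0.314 with all arrays and -0.33 ± 0.0762 (SE), adjusted p = 0.0707 without LA replicate 2. One probe differed by -0.30 ± 0.0672 (SE), adjusted p = 0.0558 in Swiss Agouti mice, and the other by -0.27 ± 0.113 (SE), adjusted p = 0.363.

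Rps2, a protein at the mRNA entry, was the small-subunit member with the largest value towards the left atrium in Swiss Agouti mice. It had 0.00, 0.07, 0.26 and 0.12 in SA left atria, against -0.13, -0.13, -0.31 and 0.00 in SA right atria. The difference was 0.26 ± 0.0761 (SE), adjusted p = 0.157, with an unadjusted p of 0.00689. In MF1 mice it had 0.20, 0.67, 0.00 and 0.00 in MF1 left atria, against -0.01, -0.21, 0.08 and -0.35 in MF1 right atria. There the difference was 0.34 ± 0.158 (SE), adjusted p = 0.498 with all arrays and 0.19 without LA replicate 2, the array with the highest value. Rps20 and Rps4x lay towards the right atrium in MF1 mice without LA replicate 2, by -0.20 (unadjusted p = 0.00331) and -0.23 (unadjusted p = 0.0129) in limma, and with all arrays by -0.14 and -0.11. Their differences were 0.05 and -0.01 in Swiss Agouti mice.

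Core proteins of the large subunit had a median difference of -0.08 in Swiss Agouti mice, with 31 of 43 probes below 0. In MF1 mice it was 0.02 with 20 of 43 probes below 0 over all arrays, and -0.05 with 29 of 43 without LA replicate 2. In Swiss Agouti mice 6 of these probes had an adjusted p under 0.05 and 16 an unadjusted p under 0.05 in right atria. Rpl36a, an X-linked protein at the exit site for tRNA, had the largest difference of all members in any of the 3 fits. Its values were -0.45, -0.22, -0.43 and -0.45 in SA left atria, against 0.33, 0.16, 0.14 and 0.02 in SA right atria, with no overlap between the groups. The difference was -0.55 ± 0.0754 (SE), adjusted p = 0.00498, a fold of 1.47, just under the limit of 1.5. The adjusted p stayed under 0.05 in all 8 fits that left out 1 array, and the probe passed the joint threshold without LA replicate 2 or without RA replicate 4. In MF1 mice Rpl36a had 0.11, 0.39, 0.01 and -0.11 in MF1 left atria, against -0.07, -0.01, 0.13 and -0.05 in MF1 right atria. These groups overlapped, and the difference was 0.10 with all arrays and 0.00 without LA replicate 2.

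Rpl37a, a zinc-binding protein of the large subunit, had -0.26, -0.28, -0.19 and -0.08 in SA left atria, against 0.24, 0.16, 0.11 and 0.45 in SA right atria. Its difference was -0.44 ± 0.0788 (SE), adjusted p = 0.0206. In MF1 mice it differed by -0.06 with all arrays and, without LA replicate 2, by -0.13 ± 0.0567 (SE), with an unadjusted p of 0.0442 and an adjusted p of 0.378 in limma. Rpl12, at the base of the P stalk, had -0.04, -0.32, -0.12 and -0.04 in SA left atria, against 0.24, 0.17, 0.22 and 0.18 in SA right atria. The difference was -0.34 ± 0.0654 (SE), adjusted p = 0.0297 in Swiss Agouti mice. In MF1 mice it was -0.02 ± 0.148 (SE), adjusted p = 0.987 with all arrays, and -0.18 ± 0.0749 (SE), adjusted p = 0.377 without LA replicate 2. That left atrium had the value 0.53, the highest of the MF1 arrays for this gene.

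Rpl5, which binds 5S ribosomal RNA and, outside the ribosome, the ubiquitin ligase Mdm2, had -0.16, -0.11, -0.29 and -0.35 in SA left atria, against 0.19, 0.11, 0.02 and 0.08 in SA right atria. The difference was -0.33 ± 0.0646 (SE), adjusted p = 0.0311. In MF1 mice its values were 0.06, 0.31, -0.01 and 0.05 in MF1 left atria, against -0.05, 0.01, -0.02 and -0.09 in MF1 right atria. The groups overlapped, and the difference was 0.14 ± 0.0722 (SE), adjusted p = 0.559 with all arrays and 0.07 without LA replicate 2. Rpl23a, at the mouth of the peptide tunnel where the signal recognition particle binds, had -0.20, -0.06, -0.01 and -0.13 in SA left atria, against 0.21, 0.31, 0.24 and 0.13 in SA right atria. Its difference was -0.32 ± 0.0581 (SE), adjusted p = 0.0207 in Swiss Agouti mice, and 0.02 with all MF1 arrays and -0.09 without LA replicate 2, where the sign turned.

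Rpl23, the binding place of the subunit joining inhibitor eIF6, was read by 4 probes. One had -0.21, -0.22, -0.21 and -0.21 in SA left atria, against 0.01, 0.07, 0.12 and 0.07 in SA right atria, and a difference of -0.28 ± 0.0423 (SE), adjusted p = 0.00848. Left atria 1, 3 and 4 share one value to the last digit, so their ranks were equal on this probe. A second probe had -0.54, -0.73, -0.59 and 0.14 in SA left atria, against 0.06, 0.12, 0.10 and -0.17 in SA right atria. It differed by -0.46 ± 0.163 (SE), adjusted p = 0.248, with left atrium 4 above all right atria. Without that array it differed by -0.65, with an adjusted p of 0.00342 in limma, and passed the joint threshold. The other 2 probes of Rpl23 differed by -0.05 and 0.04.

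**Figure D2:**
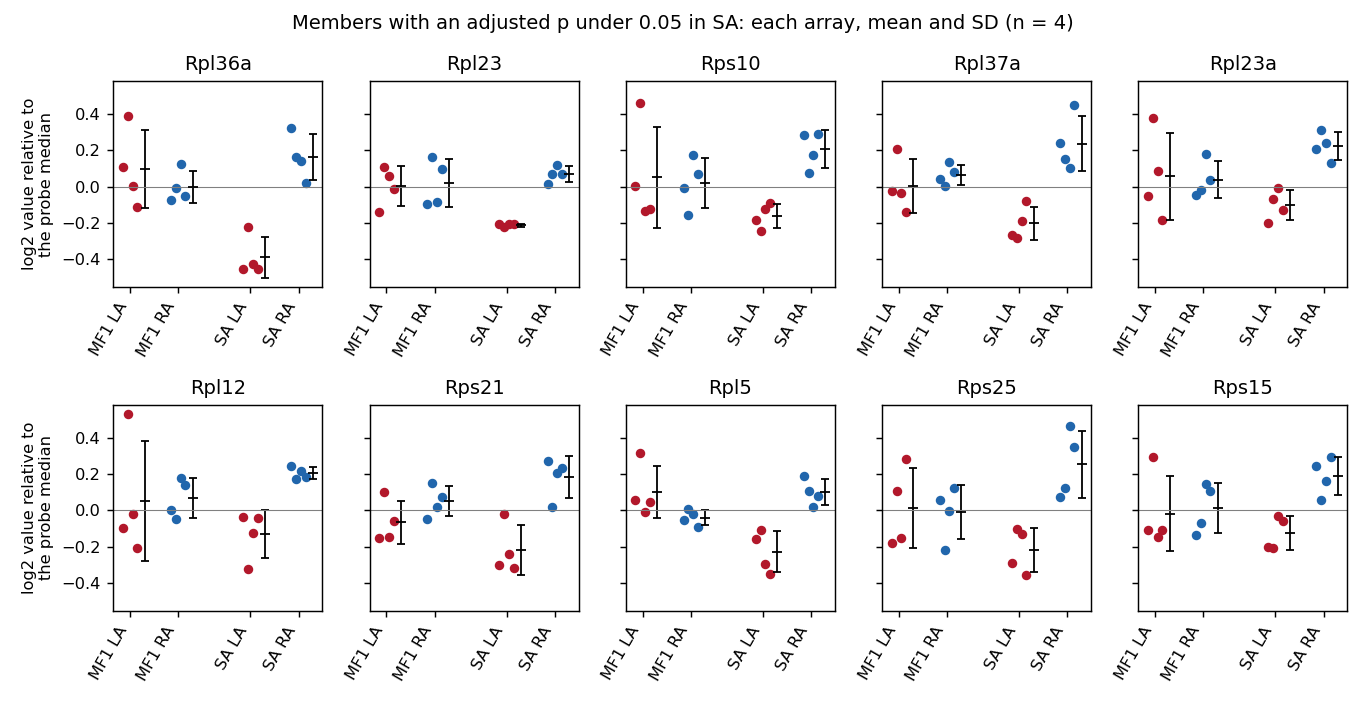
Log2 value relative to the probe median of the dataset (y axis) of the 10 member probes with an adjusted p under 0.05 in Swiss Agouti mice, on each array of MF1 LA, MF1 RA, SA LA and SA RA (x axis, LA in red and RA in blue), with the mean and SD of the 4 arrays beside the points. In every panel the 4 SA left atria lie below the 4 SA right atria, while the MF1 groups overlap.

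Rpl38, Rpl27a and Rpl13a ran towards the left atrium in a fit. Rpl38, known for its part in translating Hox mRNAs in mouse embryos, was read by 2 probes that opposed each other. One had 0.38, 0.12, 0.29 and 0.08 in SA left atria, against 0.04, -0.22, -0.16 and 0.01 in SA right atria, without overlap, and a difference of 0.30 ± 0.0827 (SE), adjusted p = 0.12. The other had -0.17, -0.13, 0.05 and -0.02 in SA left atria, against 0.01, -0.01, 0.18 and -0.07 in SA right atria, and a difference of -0.10 ± 0.0692 (SE), adjusted p = 0.662. In MF1 mice the first differed by 0.13 with all arrays and -0.02 without LA replicate 2. The second differed by -0.12 with all arrays and -0.20 without that array (unadjusted p = 0.00611 in limma). One probe of Rpl27a had 0.17, -0.06, 0.20 and 0.11 in MF1 left atria, against -0.06, -0.01, -0.09 and -0.03 in MF1 right atria. It differed by 0.15 ± 0.0613 (SE), adjusted p = 0.39 with all arrays and 0.21 ± 0.0501 (SE), adjusted p = 0.0796 without LA replicate 2, but by 0.03 in Swiss Agouti mice. Rpl13a, which also takes part in a translation-silencing complex outside the ribosome, had 0.33, 0.54, 0.05 and -0.12 in MF1 left atria, against -0.02, -0.11, -0.02 and 0.01 in MF1 right atria. It differed by 0.23 with all MF1 arrays and 0.12 without LA replicate 2, its highest array, and by -0.31 in Swiss Agouti mice.

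Rpl30 and Rpl22 were chosen after their values were seen, for their spread. Rpl30 had -0.56, 0.44, 0.29 and -0.02 in SA left atria, against 0.63, -0.46, 0.18 and 0.01 in SA right atria. The arrays numbered 1 and 2 moved in opposite ways, and the difference was -0.05 ± 0.246 (SE). Rpl22, an RNA-binding protein of the large subunit that represses its paralog Rpl22l1 in mice, had -0.16, -0.76, -0.18 and 0.18 in MF1 left atria, against 0.00, -0.05, -0.06 and 0.10 in MF1 right atria. Its second left atrium, at -0.76, was the lowest array, while most members were high there. Its difference was -0.23 with all MF1 arrays and -0.05 without LA replicate 2.

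The P stalk, which draws elongation factors to the ribosome, is described apart from the other large-subunit proteins. Its 4 probes had a median difference of 0.05 in Swiss Agouti mice, with 1 of 4 below 0, and in MF1 mice 0.03 with all arrays and 0.00 without LA replicate 2, with 2 of 4 below 0 in both. Rplp1 had 0.03, 0.03, 0.03 and -0.03 in SA left atria, against -0.18, -0.13, 0.03 and -0.23 in SA right atria. The difference was 0.14 ± 0.0593 (SE), adjusted p = 0.351, with an unadjusted p of 0.0371 in limma. Left atria 1, 2 and 3 share one value, and in MF1 mice it differed by -0.04 with all MF1 arrays and -0.11 without LA replicate 2. Rplp2 had 0.08, -0.04, 0.09 and 0.07 in MF1 left atria, against -0.05, -0.02, -0.03 and -0.06 in MF1 right atria. It differed by 0.09 ± 0.0454 (SE), adjusted p = 0.565 with all arrays, and by 0.12 ± 0.0459 (SE), adjusted p = 0.32 without LA replicate 2, where the left atria lay above the right atria. The Swiss Agouti difference of Rplp2 was 0.00 ± 0.0479 (SE).

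The 2 probes of Rplp0, the stalk's base and a gene often used to scale PCR data, opposed each other in MF1 mice. One had 0.06, 0.71, 0.15 and 0.22 in MF1 left atria, against -0.26, -0.03, -0.12 and 0.05 in MF1 right atria, without overlap, and a difference of 0.38 ± 0.137 (SE), adjusted p = 0.324. Without LA replicate 2, its highest array, the difference was 0.24 ± 0.079 (SE), adjusted p = 0.222. The other probe differed by -0.03 with all arrays and -0.11 without that array. The first differed by 0.09 and the second by 0.00 in Swiss Agouti mice.

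Among the paralogs and tissue-restricted forms 4 of 8 probes lay below 0 in Swiss Agouti mice, with a median of 0.03. In MF1 mice the median was 0.09 with 1 of 8 below 0 over all arrays, and 0.05 with 2 of 8 below 0 without LA replicate 2. Rpl3l, the striated-muscle form of Rpl3, had 0.06, -1.11, 0.24 and 0.46 in MF1 left atria, against -0.05, -0.49, -0.13 and -0.06 in MF1 right atria. Its second left atrium was the lowest of all member values on any array, and the difference was 0.10 ± 0.304 (SE), adjusted p = 0.962. Without that array the left atria lay above the right atria, with a difference of 0.44 ± 0.127 (SE), adjusted p = 0.148 and an unadjusted p of 0.00777. Rpl3l had -0.25, 0.19, 0.03 and 0.31 in SA left atria, against -0.25, -0.56, -0.17 and 0.28 in SA right atria. The groups overlapped, and the difference was 0.24 ± 0.169 (SE), adjusted p = 0.65. Rpl3 itself, its counterpart in all tissues, differed by -0.27 ± 0.0648 (SE), adjusted p = 0.0691 in Swiss Agouti mice.

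No other paralog had an unadjusted p under 0.05 in the 3 fits. With the replicate block in MF1 mice a probe of Rpl7l1 had an unadjusted p of 0.0459 and an adjusted p of 0.344 in limma. Rpl39l, a form of Rpl39 most abundant in testis, had 0.16, 0.04, 0.01 and 0.02 in SA left atria, against 0.00, -0.01, 0.01 and -0.03 in SA right atria. The groups did not overlap, but the difference was 0.07 ± 0.0476 (SE), and in MF1 mice it was -0.06 with all MF1 arrays and -0.02 without LA replicate 2. Rps27l, a target of p53, differed by 0.13 in Swiss Agouti mice, and by 0.19 with all MF1 arrays and 0.08 without LA replicate 2. Rpl22l1 differed by -0.01 in Swiss Agouti mice, and by 0.09 with all MF1 arrays and 0.07 without LA replicate 2. For Rpl36al the Swiss Agouti difference was -0.03, and those of MF1 mice were 0.06 with all MF1 arrays and -0.04 without LA replicate 2. The retrogene Rps23rg1 differed by -0.10 in Swiss Agouti mice, and by 0.02 with all MF1 arrays and 0.04 without LA replicate 2. One probe of Rpl7l1, a nucleolar paralog of Rpl7, differed by -0.06 in Swiss Agouti mice, and by 0.12 with all MF1 arrays and 0.06 without LA replicate 2. Its other probe differed by 0.07 in Swiss Agouti mice, and by 0.17 with all MF1 arrays and 0.02 without LA replicate 2. Rps19bp1, which is also known as a regulator of Sirt1, differed by -0.02 ± 0.0645 (SE), adjusted p = 0.946, in Swiss Agouti mice, and by -0.14 with all MF1 arrays and -0.16 without LA replicate 2, with adjusted p-values of 0.501 and 0.446 in limma. With the replicate block its unadjusted p in MF1 mice was 0.0481 and its adjusted p 0.351 in limma.

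**Figure D3:**
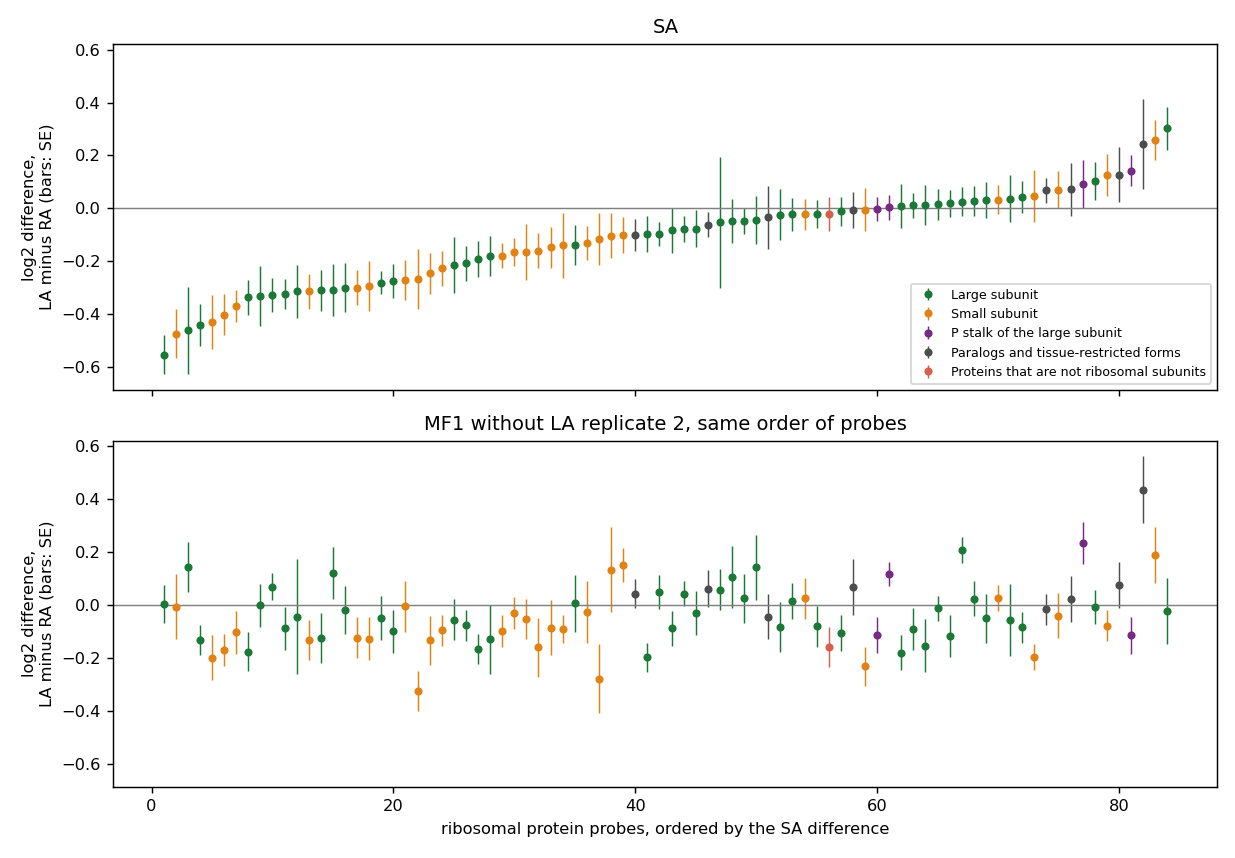
Log2 difference (LA minus RA, y axis, bars SE) of the 84 probes in SA (upper panel) and in MF1 without LA replicate 2 (lower panel), both in the order of the SA differences (x axis) and coloured by role. The SA values run from -0.55 for Rpl36a to 0.30 for a probe of Rpl38, with the P stalk and the paralogs mostly in the right part of the order.

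Of the 66 genes, 15 were read by several probes, and these did not always move together. In Swiss Agouti mice 9 of the 15 genes had probes of opposite sign, as had 6 in MF1 mice and 5 in MF1 mice without LA replicate 2. The widest ranges in Swiss Agouti mice were 0.50 for Rpl23 and 0.40 for Rpl38, both larger than the SE of any single probe of these genes. Rpsa, the laminin-binding protein of the small subunit, had probes at -0.10 and 0.13 in Swiss Agouti mice and at 0.12 and -0.06 in MF1 mice (0.15 and -0.08 without LA replicate 2), so the signs of the probes were exchanged between the datasets. The probes of Rps9, Rps3 and Rps24 all lay below 0 in Swiss Agouti mice and in MF1 mice without LA replicate 2. With all MF1 arrays the probes of Rps24 had opposite signs, at -0.05 and 0.02. Ribosomal protein genes have many processed pseudogenes, and how far probes also bind RNA of those copies was not tested.

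**Figure D4:**
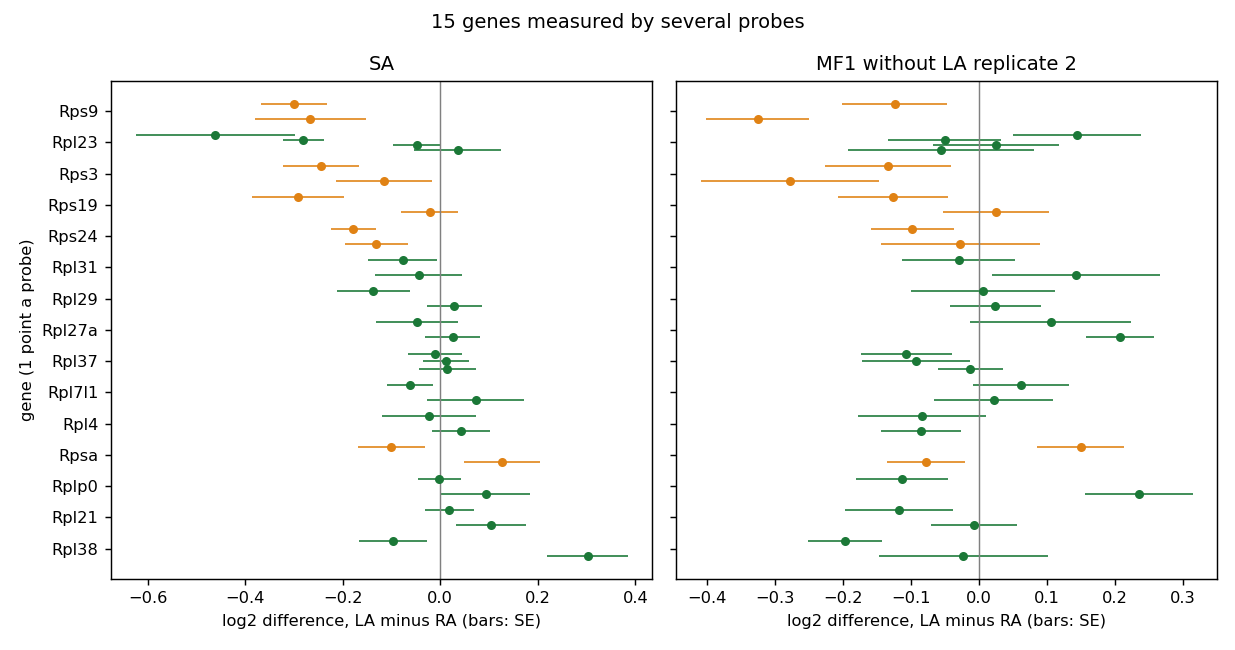
Log2 difference (LA minus RA, x axis, bars SE) of each probe of the 15 genes read by several probes (y axis, large-subunit genes and their paralogs in green, small-subunit genes in orange) in SA (left) and in MF1 without LA replicate 2 (right). The probes of Rpl23 span 0.50 and those of Rpl38 0.40 in SA.

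The difference between the datasets was itself tested, as the MF1 difference minus the Swiss Agouti difference in one fit over all 16 arrays. The datasets were normalized separately, so only differences within a dataset enter it. No member had an adjusted p under 0.05, against 2 of all probes (0.00778%). At an unadjusted p under 0.05 the MF1 difference was above the Swiss Agouti difference for 16 members (19.0%, against 3.56% of all probes) and below it for none (against 3.82%). Rpl36a had the lowest p, with a difference between the datasets of 0.65 ± 0.134 (SE), unadjusted p = 0.000199, adjusted p = 0.175. For Rpl5 it was 0.47 ± 0.0987 (SE), unadjusted p = 0.000258, adjusted p = 0.18, and for Rpl37a it was 0.38 ± 0.114 (SE), unadjusted p = 0.00478, adjusted p = 0.419. Without MF1 LA replicate 2 the counts were 12 (14.3%, against 4.21% of all probes) and 1 (1.19%, against 3.77%). No member had an adjusted p under 0.05 in that fit, against 0.0584% of all probes.

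Over the 84 probes the Swiss Agouti and MF1 differences correlated at r = 0.125 (Spearman's rho = -0.01) with all arrays, and at r = 0.296 (rho = 0.25) without MF1 LA replicate 2. These describe 84 probes that share arrays and vary together. Of the 60 probes below 0 in Swiss Agouti mice, 25 were below 0 in MF1 mice with all arrays and 42 without LA replicate 2. Of all 84 member probes, 38 (45.2%) and 57 (67.9%) were below 0 in these 2 MF1 fits. The counts among the 60 thus lay near the shares of all members. The same overlap was not counted over all probes. The probes above 0 in both datasets numbered 11 with all arrays and 9 without LA replicate 2, with Rpl3l and Rps2 among both.

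**Figure D5:**
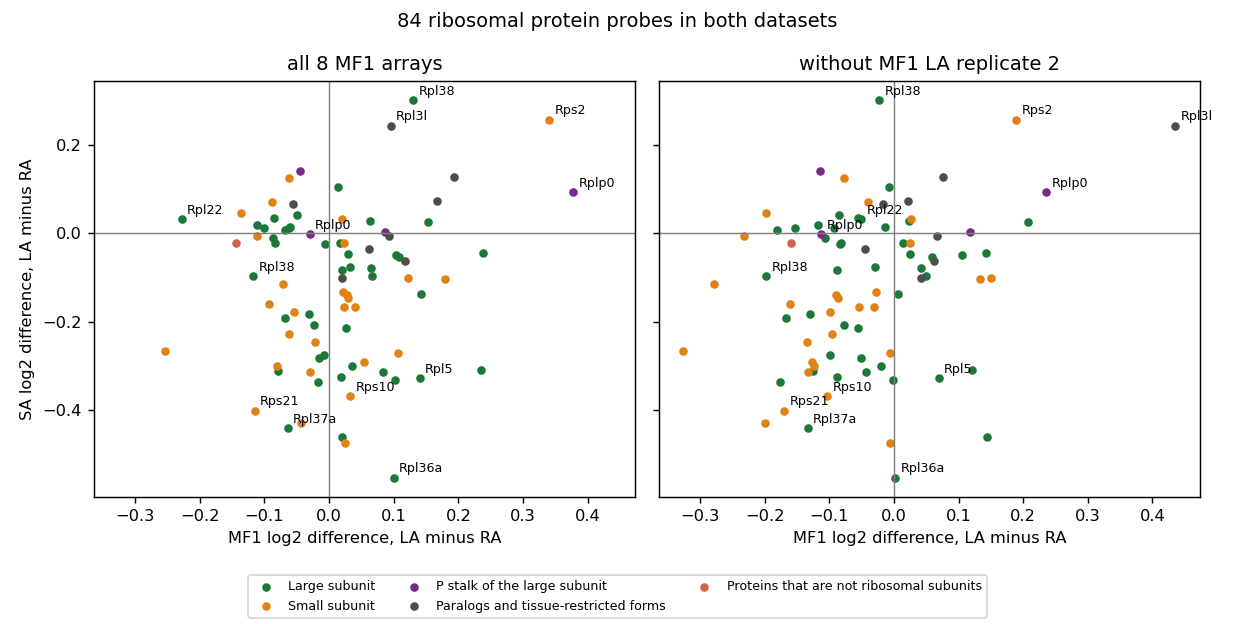
Log2 difference (LA minus RA) of the 84 probes in MF1 (x axis) and SA (y axis), with all 8 MF1 arrays (left panel) and without MF1 LA replicate 2 (right panel), coloured by role. The median on the x axis is 0.02 in the left panel and -0.05 in the right panel, where Rpl3l lies at 0.44.

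Other genes of the translation machinery were counted in the same way. The 20 probes of 10 elongation factor genes had a median of 0.04 in Swiss Agouti mice, with 5 below 0, and the 39 probes of 26 initiation factor genes 0.01, with 19 below 0. The 16 probes of 10 other genes with TOP mRNAs had a median of -0.02, with 9 below 0, and the 54 probes of 36 ribosome biogenesis genes -0.01, with 29 below 0. In none of these 4 lists did a probe have an adjusted p under 0.05 in any of the 3 fits. At an unadjusted p under 0.05 in Swiss Agouti mice, 2 elongation factor probes were higher in right atria and 3 in left atria, and for initiation factors the counts were 2 and 4. They were 2 and 2 for the other TOP mRNAs, and 4 and 0 for ribosome biogenesis. Over all probes 6.47% were higher in right atria and 6.16% in left atria by this rule. The lists hold 16 to 54 probes, and no side was read from these counts.

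Eef1a2, the elongation factor form of muscle and neurons, had a probe with 0.03, -0.03, 0.04 and 0.13 in SA left atria, against -0.10, -0.20, -0.24 and -0.15 in SA right atria. It differed by 0.21 ± 0.0509 (SE), adjusted p = 0.0707. Among the TOP mRNAs, Tpt1 and Fau lay on the side of the ribosomal proteins in Swiss Agouti mice, at -0.20 ± 0.0528 (SE), adjusted p = 0.111 and at -0.23 ± 0.0742 (SE), adjusted p = 0.209. This list had 2 probes towards each atrium at an unadjusted p under 0.05 in limma there. Its largest difference towards the left atrium was 0.45, so the list as a whole did not lie on that side. Fau encodes the small-subunit protein Rps30 fused to a ubiquitin-like domain, and its symbol kept it out of the 84 probes. Ltv1, a small-subunit assembly factor, differed by -0.28 ± 0.0635 (SE), adjusted p = 0.0582, the lowest p of the biogenesis list in that dataset.

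The list of mTOR and TOP regulators had a median of 0.00 in Swiss Agouti mice, with 11 of 25 probes below 0. At an unadjusted p under 0.05 in limma, 2 of them were higher in right atria there and 5 in left atria. In this list 1 probe of 25 passed the joint threshold in each fit. It read Ddit4l, an inhibitor of mTOR complex 1, with 1.46, 0.92, 1.12 and 1.51 in SA left atria, against -0.76, -0.64, -0.73 and -0.71 in SA right atria. The difference was 1.96 ± 0.117 (SE) in Swiss Agouti mice. In MF1 mice it had 1.74, 0.29, 1.64 and 1.94 in MF1 left atria, against -0.46, -0.48, -0.34 and -0.35 in MF1 right atria, so the second left atrium lay far below the other left atria and above all right atria. The difference was 1.81 with all arrays and 2.18 without that array, with adjusted p-values of 0.0332 and 4.71e-06 in limma. Eif4ebp1, the cap-binding inhibitor that mTOR inactivates, had -0.28, -0.07, -0.26 and -0.16 in SA left atria, against 0.44, -0.08, 0.05 and 0.30 in SA right atria. It differed by -0.37 ± 0.105 (SE), adjusted p = 0.137. A part of mTOR signalling in the ribosomal protein values was not tested.

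Markers of other cells were set beside the ribosomal proteins, array by array. Of 12 macrophage probes (8 of 10 listed genes), 11 lay below 0 in Swiss Agouti mice, with a median of -0.45, with 4 higher in right atria and 1 (Mrc1) higher in left atria at an adjusted p under 0.05. In MF1 mice the median was -0.18 with all arrays and -0.51 without LA replicate 2, with 11 of 12 below 0 in both. The median of the macrophage probes was -0.41, -0.12, -0.11 and -0.46 in Swiss Agouti left atria, against 0.30, 0.07, 0.13 and 0.07 in right atria. In MF1 mice it was -0.03, 0.81, -0.06 and -0.46 in left atria, against 0.16, 0.23, 0.22 and 0.07 in right atria, so the array that was high for ribosomal proteins was the highest for macrophage genes as well. On that array 15 of 16 probes of cell division genes lay above 0, with a median of 0.56, against -0.07 to 0.08 on the other 7 MF1 arrays. It was also the lowest MF1 array for erythroid markers (median -0.95) and endothelial markers (median -0.17). The cell division list had a median difference of 0.14 in MF1 mice with all arrays and -0.02 without LA replicate 2, and 0.01 in Swiss Agouti mice. Array medians of that list in Swiss Agouti mice were -0.07 to 0.06 in left atria, against -0.04 to 0.00 in right atria. All 4 erythroid probes lay below 0 in Swiss Agouti mice, with array medians of -0.99 to -0.02 in left atria, against 0.05 to 0.34 in right atria. Also in Swiss Agouti mice, endothelial markers had a median of -0.19 (9 of 10 probes below 0), and epicardial and mesothelial markers -0.23 (7 of 8). Lymphocyte markers had -0.04 (9 of 11), fibroblast markers 0.02 (5 of 10) and adipocyte markers -0.08 (6 of 6). In MF1 mice endothelial markers had -0.05 with all arrays and 0.01 without LA replicate 2 (5 of 10 in both). Epicardial and mesothelial markers had -0.57 and -0.59 (8 of 8 in both), and lymphocyte markers 0.02 (4 of 11) and -0.06 (9 of 11). Fibroblast markers had 0.04 and 0.04 (4 of 10 in both), and adipocyte markers -0.02 and -0.05 (3 of 6 in both). Atrial cardiomyocyte markers had a median of -0.06 in Swiss Agouti mice, with 8 of 12 probes below 0. At an adjusted p under 0.05, 1 of these probes was higher in right atria there and 2 in left atria. In MF1 mice their median was 0.01 with all arrays (5 of 12) and 0.00 without LA replicate 2 (6 of 12), with no such call. Of 5 ventricular cardiomyocyte probes (4 genes), 3 lay below 0 in Swiss Agouti mice, with a median of -0.08. At an adjusted p under 0.05, 1 was higher in right atria there and none in left atria. In MF1 mice none passed the joint threshold with all arrays, and 1 passed it towards the left atrium without LA replicate 2. The largest difference of this list in Swiss Agouti mice was that of Myl2, the ventricular light chain. Myl2 had -0.40, -0.75, -0.46 and -0.83 in SA left atria, against 0.45, 4.38, 4.10 and 5.62 in SA right atria. Its lowest right atrium was the one with the highest ribosomal protein median. Whether a marker is expressed cannot be read from these centred values, and the part of these cell types in the ribosomal protein values was not tested.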

How the data were processed

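Left and right atria of MF1 and Swiss Agouti mice were measured on 16 Illumina mouse bead arrays, 1 atrium per array and 4 arrays per group. The authors exported signals from Genome Studio to GeneSpring, where each dataset was quantile normalized and each probe set to its median, and the deposited values are log2. Levels and detection therefore cannot be read, and 32 columns of signals that could not be tied to samples were not used. For arrays, their number limits the precision.

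Left minus right was fitted within each dataset with limma 3.58.1 (lmFit and eBayes, R 4.3.3), tested on simulated data first, with Benjamini-Hochberg adjustment over 25697 probes. Passing a probe required an adjusted p under 0.05 together with a fold change of more than 1.5. P-values set the difference between the atria against the spread between these arrays, with each probe's variance moderated over all probes. Unless the replicate block is named, they are from fits that do not pair the atria. Symbols came from the platform annotation, which names 23978 probes and leaves 1719 unnamed. Promoters were those of RefSeq on GRCm38.p6.

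The members and lists were chosen with earlier results of these data known. The rule for named genes took, in each fit, the 6 members with the lowest p and the 3 farthest towards the left atrium, with all P stalk proteins, paralogs and non-subunits, genes whose probes had opposite signs, and the 3 members with the lowest p between the datasets. The other members with an adjusted p under 0.05 in Swiss Agouti mice, and Rps16, Rpl3, Rps3, Rpl13a, Rpl22 and Rpl30, were named after their values were seen.

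In MF1 mice the replicate numbers pair the atria: deviations from the group means correlated at 0.230 to 0.499 between arrays of the same number and at -0.286 to 0.0203 between others, and 4 of 4 left atria correlated best with their own number. The alternatives were a replicate block, array weights, ordinary variance, one fit of all 16 arrays, centred arrays, averaged probes, no paralogs, and leaving out each array.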

Additional observations from a re-analysis of the deposited data

Results flagged for a closer look

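In 16 of 196 groups of 4 arrays, 1 array lay far from the other 3, with a gap to its nearest neighbour, as a share of the group's whole range, above Dixon's limit for 4 values. Chance gives this in about 1 in 20 groups, and the probes share their arrays.

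Left atrium 2 of MF1 mice was the far array in 5 of the 16. The gap was 0.858 of the range for the median of the 84 ribosomal protein probes, 0.960 for a probe of Rps19 (a small-subunit protein mutated in Diamond-Blackfan anaemia in people), 0.852 for a probe of Rpl23, 0.835 for a probe of Rpl38 and 0.834 for Rplp2. In right atria of MF1 mice the gap was 0.962 for a probe of Rpl21 (array 3), 0.898 for a probe of Rpl31 (array 1) and 0.830 for Rpl3l (array 2).

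In left atria of Swiss Agouti mice the gap was 0.881 for Rpl36a (array 2) and 0.845 for Rpl39l (array 1). It was 1.0 for a probe of Rpl23 (array 2), for Rplp1 (array 4) and for a probe of Rps24 (array 4), in each of which the other 3 arrays share one value to the last digit. In right atria of Swiss Agouti mice it was 0.842 for Rps20 (array 1), 0.844 for a probe of Rpsa (array 1) and 1.0 for a probe of Rpl37 (array 3), again with 3 identical values.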

How the results depend on the processing

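No result changed sign among called values. In MF1 mice 203 probes passed the joint threshold, 51 with ordinary variance, 346 on adjusted p alone, 292 with the replicate block and 117 to 289 with 1 array left out (118 without LA replicate 1, 135 without RA replicate 1, 117 without RA replicate 3, 131 without RA replicate 4, 289 without LA replicate 2). Members higher in right atria at an unadjusted p under 0.05 numbered 1, 2 with the replicate block or all 16 arrays in one fit, 3 with array weights and 0 to 10 with 1 array left out. Those higher in left atria numbered 2, 4 with array weights and 1 to 5 with 1 array left out, and the member median ranged from -0.0508 to 0.0249.

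In Swiss Agouti mice 162 probes passed, 37 with ordinary variance, 518 on adjusted p alone, 165 with the replicate block and 134 to 196 with 1 array left out. The 10 members with an adjusted p under 0.05 numbered 9 with the replicate block, 12 with array weights, 5 with all 16 arrays in one fit, 1 with ordinary variance, 2 without both arrays numbered 1 (chosen after seeing the data) and 4 to 10 with 1 array left out. The block ended the calls of Rps21 and Rps15 in Swiss Agouti mice (adjusted p = 0.102 and 0.0503 in limma) and added that of Rpl19 (0.0491). The sample titles number left and right atria alike there too, but arrays of the same number did not deviate together. Correlations were -0.112 to 0.138 for the same number and -0.157 to 0.330 for others, and 1 of 4 left atria correlated best with its own. This does not show that equal numbers came from different animals. Members passing the joint threshold numbered 0 to 1 with 1 array left out. The 30 members higher in right atria at an unadjusted p under 0.05 became 18, and the median of -0.09 became -0.05 (-0.0484), without both arrays numbered 1. The 3 higher in left atria became 0 with all 16 arrays in one fit. Between the datasets 2 probes passed, 0 with the replicate block and 9 without MF1 LA replicate 2, with no member among them. The causes of these changes were not tested. Fits that left out arrays also held fewer arrays. Centring each array, averaging probes of a gene and leaving out paralogs moved no member count or median beyond 1.5 times or the spread of the arrays. For single named probes, all 624 comparisons with an alternative in MF1 mice kept their side of the threshold. In Swiss Agouti mice 638 did so, 33 lost a call and 1 gained one. Most of these probes had no call to lose, since no member was called in MF1 mice and 10 of 84 in Swiss Agouti mice. These counts are therefore no measure of how stable the calls were. Rps25, Rps21 and Rps15, called in Swiss Agouti mice, were not among the probes compared.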
